A study of Mus musculus with 32 samples.

Results

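Microglia sorted from a cortical stab wound were compared between day 7 and day 4 after injury, directly at the wound and without dividing by the non-injured side. The members are the deposited count columns of the injured side at these days, 4 for day 7 and 4 for day 4, which make 8 of the 32 columns of the series. Each day and sex has 2 such columns, and these were summed, which leaves 4 libraries: day 4 female, day 4 male, day 7 female and day 7 male. The mice were adult C57BL/6 animals heterozygous for Cx3cr1CreER, a tamoxifen-dependent recombinase in the fractalkine receptor gene, and received 180 mg/kg tamoxifen daily for 5 days at 8 to 10 weeks of age to label microglia with the yellow fluorescent protein EYFP. The stab wound followed, EYFP+ cells were sorted from the dissociated cortex around it, and the other 24 columns of the series hold the matching site of the opposite hemisphere and the wound at days 1 and 14. Every group shares the driver allele, tamoxifen and sorting, so no group lacks them, and the non-injured hemisphere belongs to a wounded brain. The recombinase follows Cx3cr1, which other tissue macrophages and blood monocytes express as well, and the labels do not say which animals or pools stand behind a column.

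Microglia are the resident macrophages of the brain, and in the first days after a wound they meet blood, dead cells and broken myelin. They break down heme from red cells, divide, take up lipid-rich debris into lysosomes, pass cholesterol on to lipoproteins, and can present antigen to lymphocytes that enter the tissue. Monocytes from blood and macrophages of the brain's borders take part in the same response and express many of the same genes.

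Over this interval the sorted cells carried several times less of the heme oxygenase transcript and less of the transcripts of some glycolysis and ribosomal protein genes, and more of those for a lysosomal proton pump subunit, the IgA heavy chain and several MHC class II and complement genes. These statements describe 2 libraries a day: no gene passed the adjusted threshold in the fit used here. edgeR's quasi-likelihood test, fitted to the 8 wound libraries of all 4 days with day and sex, called 0 of 22040 genes higher (0%) and 0 lower (0%) at an adjusted p under 0.05, with a smallest adjusted p of 0.596 by Benjamini-Hochberg. At an unadjusted p under 0.05 it held 376 genes, 255 higher (1.16%) and 121 lower (0.549%) at day 7. DESeq2 called 19 genes (531 at an unadjusted p under 0.05), 10 higher and 9 lower, and limma on log2(TPM + 1) called 0 (281 at an unadjusted p under 0.05). No library was left out and no value was imputed in these fits.

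Depth was 55378788 and 32833365 counts in the day 4 female and male libraries and 40848878 and 38890179 counts at day 7. Gene by gene, the 2 columns of a group were nearly duplicates, with a median chi-square of 0.475 to 0.549 where pure sampling gives 0.455, whereas the sexes of a day gave 31.5 to 47.4. The series' design text calls them biological replicates. Because they differ so little they were counted here as 1 sample, so n = 2 per day, a female and a male library, and p-values measure only the spread between such libraries. Taken as separate samples, the columns gave 1148 calls. With 2 against 2 an exact two-sided permutation test cannot go below p = 0.333, so no such test is given for single values. Some facts set libraries apart. In the day 7 male wound library the top 10 genes made up 30.5% of counts, against 21.4% in the day 7 female one. At day 4 this share was 18.8% and 19.9%. The day 7 male library also had the fewest genes with at least 5 counts of the 4, 16184. Mitochondrial transcripts made up 6.89% of counts in the day 4 male wound library, against 1.43% in the day 4 female one and 1.07% and 2.29% at day 7. The same library held 408 CPM (a count scaled to a common library size, here with TMM factors) of 10 cardiac muscle genes, where the other wound libraries of days 4 and 7 held 2.56 to 3.19 CPM. Sex-linked genes matched the labels in these 4 libraries. Where a log2 difference is given without 1 library, its day kept 1 library, and the fit took its sex term from the other days. Such a difference can pass 0 while the CPM of the libraries left keep their order. In the rest of the text pairs of values are given for the female and then the male library, a gene is called separated when both libraries of a day lie above both of the other, and "higher" or "lower" refers to day 7 against day 4. Of the 22040 genes, 2853 were separated higher (12.9%) and 4506 lower (20.4%), and of 8195 genes averaging 10 CPM or more 1682 were separated higher (20.5%) and 798 lower (9.74%). With median-ratio factors in place of TMM factors these last counts were 1427 and 1043, with total counts 1099 and 1283, and with the median of the same genes 1330 and 1167. Weakly expressed genes thus leaned to day 4, and the median log2 difference was -0.19 over all genes and 0.12 over those at 10 CPM or more.

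The genes with the smallest p among separated genes at 10 CPM or more are described first, 12 higher and 12 lower, and none of them was called by edgeR (adjusted p = 0.596 to 1). Atp6v0d2 encodes a membrane subunit of the proton pump that acidifies lysosomes in macrophages and osteoclasts. It stood at 1.29 and 4.56 CPM at day 4 and at 33.6 and 40.4 CPM at day 7, a log2 difference of 3.73 (SE 0.83, unadjusted p = 0.000403), and DESeq2 called it (adjusted p = 0.0202). Both day 7 libraries were close to each other and several times above either day 4 library. Mcoln3, a cation channel gene of endosomes and lysosomes from the mucolipin family, showed the same order at 4.87 and 4.88 CPM against 44.7 and 64.5 CPM (log2 3.41, SE 0.85). Both gene bodies lie in the GRCm38 annotation, Atp6v0d2 on chromosome 4 from 19876841 to 19922605 on the minus strand and Mcoln3 on chromosome 3 from 146117450 to 146141806 on the plus strand. Clec12a, an inhibitory lectin receptor gene of myeloid cells, stood at 29.7 and 46.5 CPM and then at 161 and 256 CPM (log2 2.45, SE 0.64). Its difference hardly depended on any single library, with 2.30 to 2.53 when each of the 4 was left out. Mmp8, a collagenase gene best known from neutrophils, went with it at 19.8 and 25.3 CPM against 106.7 and 130.4 CPM (log2 2.40, SE 0.71). Most other neutrophil markers overlapped between days: of 13 tested, 1 was separated higher (Mmp8 itself) and 1 lower. The median log2 ratio of the list was 0.33 between the female and -0.11 between the male libraries. Their summed level, which includes Mmp8, was higher at day 7, at 410.6 and 287 CPM against 523.7 and 450.3 CPM. C3, the central complement component gene, stood at 24.8 and 8.24 CPM and at 76.8 and 136.5 CPM (log2 2.92, SE 0.75, and 1.865 without the day 7 male library). Ms4a14, a tetraspan gene of the MS4A family, stood at 7.72 and 6.00 CPM and at 44.5 and 74.0 CPM (log2 3.25, SE 0.85, and 1.99 without the day 7 male library).

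Regulators of transcription and signalling were among the same 12 genes. Pim1, a kinase gene switched on by cytokine receptors, stood at 22 and 8.77 CPM at day 4 and at 74.9 and 314.5 CPM at day 7 (log2 4.12, SE 0.96), and DESeq2 called it (adjusted p = 0.0207). The male day 7 library carries most of this difference, which was 1.55 without it. Kdm6b, the gene of a demethylase of histone H3 lysine 27, stood at 32.3 and 12.9 CPM against 126.7 and 109.8 CPM (log2 2.67, SE 0.79), which was 1.58 without the same library. Map3k1, a kinase gene at the head of a MAP kinase cascade, stood at 113.5 and 32.6 CPM against 293.8 and 518 CPM (log2 3.07, SE 0.88), which was 1.205 without it.

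Some immunoglobulin transcripts separated the days and others overlapped: the 10 constant region genes followed summed to 195 and 29.4 CPM at day 4 and to 353 and 335 CPM at day 7, while Ighm, the IgM heavy chain gene, overlapped at 174 and 27.4 CPM against 171 and 97.7 CPM and Ighg2b at 0.28 and 0.0588 CPM against 8.75 and 0 CPM. Igha, the heavy chain constant region of IgA, had 8 and 5 counts at day 4 and 2862 and 1737 counts at day 7. On the CPM scale that is 0.149 and 0.147 against 76.3 and 54.9 (log2 9.50, SE 1.82, unadjusted p = 6.93e-05), and DESeq2 called it (adjusted p = 1.1e-05). Igkc, the kappa light chain constant region, stood at 6.34 and 0.53 CPM against 77.6 and 153 CPM (log2 4.61, SE 1.13). Jchain, which encodes the chain that joins IgA and IgM units, stood at 0.634 and 0.206 CPM against 22 and 36 CPM (log2 5.81, SE 1.10), and DESeq2 called it as well (adjusted p = 6.75e-05). Variable segments followed: 218 of them summed to 8.29 CPM in the female and under 2 CPM in the male library at day 4 and to 63.2 and 82.1 CPM at day 7. Cd79a, a gene of the B cell receptor complex, was low, at 0.507 and 0.98 CPM in the day 7 libraries. On the non-injured side Igha and Igkc reached 75.1 and 49.6 CPM in the day 7 male library and at most 0.0868 CPM in the other 3 libraries of these days. Immunoglobulin genes are a multigene family whose reads can be split among near-identical copies, so single-gene values are uncertain.

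Hmox1, the gene of the enzyme that opens the heme ring, was among the 12 lower genes. It stood at 1539 and 2565 CPM at day 4 and at 219 and 256 CPM at day 7, a log2 difference of -3.09 (SE 0.73, unadjusted p = 0.000721), and DESeq2 called it (adjusted p = 0.000269). Per transcript length the level was 1470 and 1886 TPM (a unit scaled by transcript length and library) against 198.9 and 172 TPM. Leaving out each library in turn gave -3.44 to -2.77, and on the non-injured side the gene stood at 46.8 and 35.1 CPM at day 4 and 21.4 and 28.3 CPM at day 7. Hemoglobin transcripts, which come from red cells and their precursors, showed the same order. Hba-a1 stood at 6.36 and 12.1 CPM against 0.613 and 0 CPM (DESeq2 adjusted p = 0.00171), and Hbb-bs at 7.09 and 15.8 CPM against 0.667 and 0 CPM. The hemoglobin genes come in near-identical pairs, between which reads may be split. Cd5l, a secreted survival factor gene of tissue macrophages, stood at 329 and 205 CPM against 63.0 and 91.6 CPM (log2 -1.70, SE 0.67). Rpl29, a large ribosomal subunit gene, stood at 83.9 and 117 CPM against 32.0 and 20.8 CPM (log2 -2.03, SE 0.69, and -1.27 without the day 4 male library). Ckb, the brain creatine kinase gene, stood at 995 and 755 CPM against 360 and 189 CPM, and Tuba1a, an alpha-tubulin gene, at 250.7 and 424 CPM against 89.9 and 130.3 CPM.

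For 6 of the 12 lower genes, namely Tnni3, Olig1, Cldn11, Mrps6, Igfbp2 and Rpl29, the log2 difference shrank by more than 1.5 times without the day 4 male library. That library also held more mitochondrial, oligodendrocyte and cardiac transcripts than the other 3, and their part in the result was not tested. Tnni3, cardiac troponin I, stood at 1.29 and 46.3 CPM at day 4 and at 0.907 and 1.01 CPM at day 7, and its log2 difference of -3.83 was -0.50 without that library. Olig1, a transcription factor gene of oligodendrocyte lineage cells, stood at 10.2 and 119 CPM against 5.15 and 4.02 CPM (-3.05, and -1.39 without it). Cldn11, a claudin gene of myelin, stood at 14.9 and 159 CPM against 5.33 and 12.1 CPM (-2.87, and -1.33 without it). Mrps6, a mitochondrial ribosome gene, went from -2.14 to -0.74 without it, Igfbp2, an insulin-like growth factor binding protein gene, from -1.94 to -0.98, and Wscd1 from -2.48 to -1.71 (-1.46 without the day 7 male library). Atp5g2, a subunit gene of mitochondrial ATP synthase, stood at 15.4 and 48.5 CPM against 2.88 and 9.02 CPM (-2.42, and -1.88 without it).

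**Figure D1:**
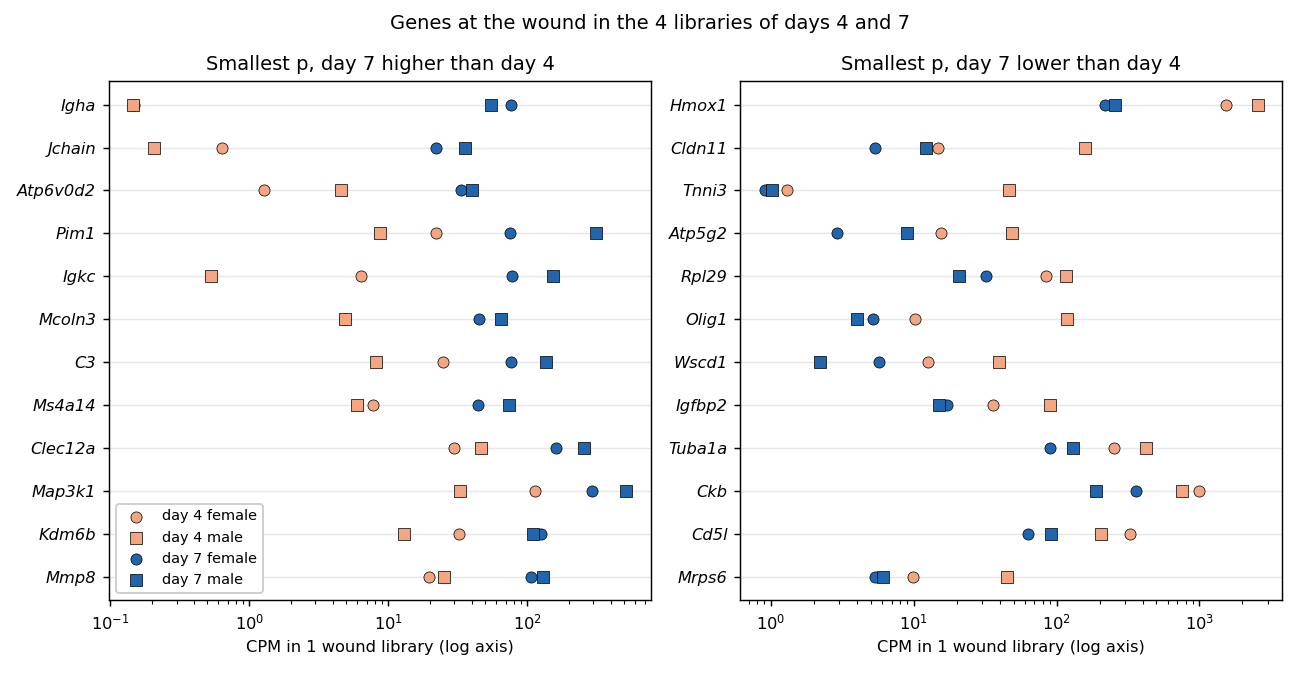
CPM on a log axis for the 12 higher (left) and 12 lower (right) genes with the smallest p, 1 point per wound library, orange for day 4, blue for day 7, circles for female and squares for male libraries. Igha lies at 0.149 and 0.147 CPM at day 4, and Tnni3, Olig1 and Cldn11 are high in the day 4 male library alone among the 4.

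To describe groups of genes, 24 lists were followed, each beside the share of all tested genes that separated (12.9% higher, 20.4% lower). Among genes averaging 10 CPM or more these shares ran the other way (20.5% and 9.74%), so a list of well expressed genes has another background than a list of weak ones. No list member was called by edgeR in any of the 24, so the counts below are counts of separated genes, a description of 4 libraries. They depend on scaling: with median-ratio factors, total counts or the median of genes at 10 CPM or more in place of TMM factors, the higher genes among all tested were 2442, 1990 and 2276 and the lower ones 4962, 5417 and 5104. The median over all genes moved from -0.18 to -0.29, -0.39 and -0.35 on the log2 ratio of day means. The median of a list turned from above to below 0 under at least 1 of these scalings for the disease-associated, lipid, cholesterol, chemokine, growth factor and transcription factor lists, so no direction is given for them as lists. MHC class II (58.3%), complement (50%), MHC class I (47.4%), IL-4 and repair-type activation (43.8%), inflammatory cytokines (41.9%) and type I interferon response (41.7%) had the largest shares of members separated higher. Glycolysis (45.8%) and ribosomal proteins (34.2%) had the largest shares separated lower.

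**Figure D2:**
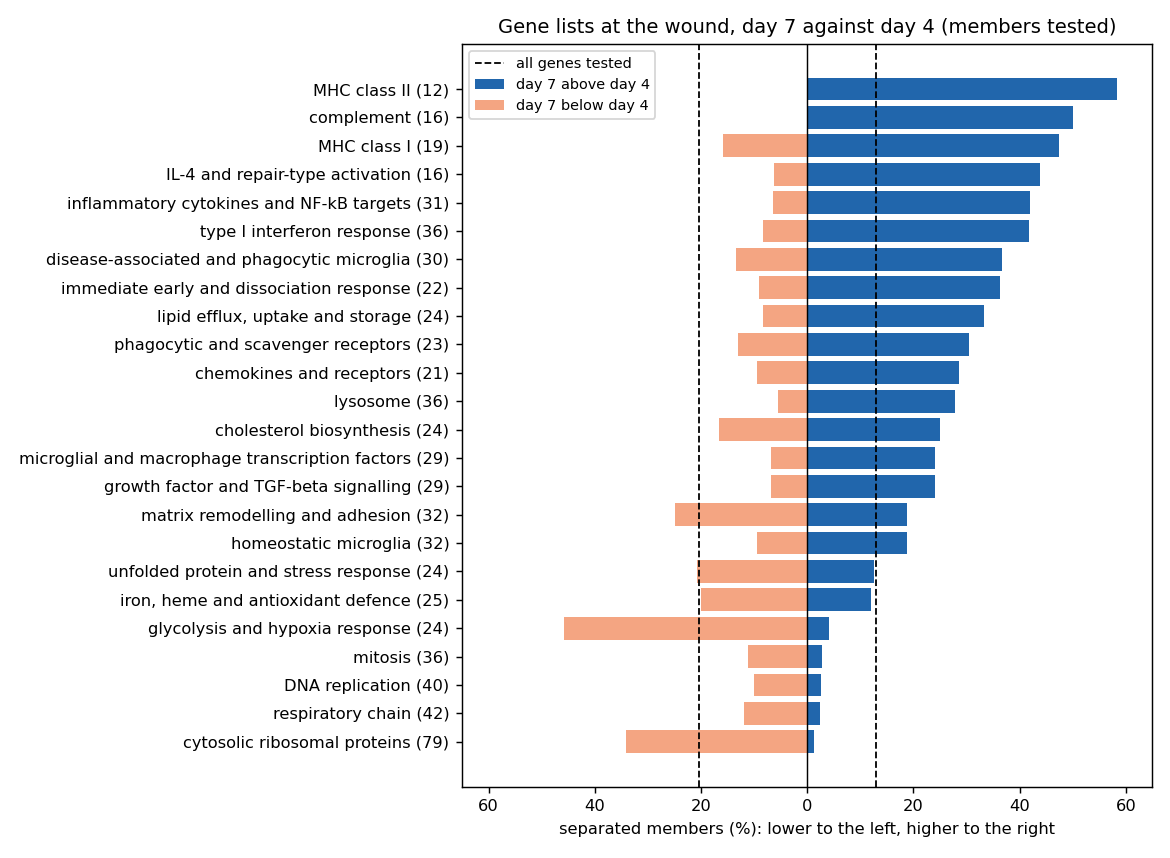
Share of each list's tested members (number in parentheses) whose 2 libraries of day 7 lay both above (blue, to the right) or both below (orange, to the left) those of day 4. Dashed lines mark the shares over all 22040 genes tested, 12.9% and 20.4%. MHC class II and complement have 0 members separated lower.

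Of 30 disease-associated and phagocytic microglia genes, 11 were separated higher and 4 lower, with a median log2 difference of 0.21 that was -0.01 as a ratio of means under total-count scaling. This set is known for debris uptake and lipid handling. Gpnmb, a glycoprotein gene of lysosomes and phagosomes, stood at 1257 and 1523 CPM at day 4 and at 5324 and 4366 CPM at day 7 (log2 1.85, SE 0.86, unadjusted p = 0.0478), and leaving out the day 7 female library gave 1.15. Its 2 day 7 libraries were well above those of day 4. Clec7a, the beta-glucan receptor gene, stood at 138.9 and 135 CPM against 306.4 and 285.4 CPM, and Cd68, a lysosomal membrane gene, at 2079 and 2224 CPM against 3095 and 4189 CPM. The log2 difference of Cd68 was 0.79, and 0.03 without the day 7 male library. Apoe, the gene of the main lipid carrier of the brain, stood at 38441 and 9845 CPM against 53592 and 102483 CPM (log2 2.19, SE 1.48), and per length at 66413 and 13933 TPM against 95548 and 121154 TPM. The log2 difference was 0.604 without the day 7 male library. Its female libraries differed little and its male libraries by a large margin. Trem2, the lipid-sensing receptor gene of this state, stood at 1132 and 796 CPM against 1296 and 1357 CPM. Members on the other side were Ctsl, a cathepsin gene, at 2399 and 2373 CPM against 1034 and 850.5 CPM (log2 -1.35, SE 0.71), Csf1, a macrophage growth factor gene, at 165 and 156 CPM against 125 and 42.1 CPM, Lpl, lipoprotein lipase, at 449 and 239 CPM against 194 and 187 CPM, and Tyrobp, the signalling partner of Trem2. Spp1, the osteopontin gene, overlapped between days, at 20765 and 34475 CPM against 22948 and 86351 CPM.

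Of 24 genes for lipid efflux, uptake and storage, 8 were separated higher and 2 lower. Abcg1, an exporter gene for cholesterol, stood at 859.6 and 411 CPM against 1591 and 3715 CPM (log2 2.64, SE 1.12). The fitted difference was -0.05 without the day 7 male library, although the day 7 female library lay above both day 4 libraries. Soat1, which esterifies cholesterol for storage, stood at 329 and 175 CPM against 518 and 895 CPM, and Nr1h3, which encodes the sterol-sensing receptor LXR alpha, at 10.2 and 8.30 CPM against 17.6 and 42.4 CPM. Without the day 7 male library their log2 differences of 1.73 and 1.77 were 0.41 and 0.51. Apoc4, a lipoprotein gene next to Apoe, stood at 6.62 and 6.62 CPM against 13.5 and 37.8 CPM. Its log2 difference was 1.995, and 0.534 without the day 7 male library. Ch25h, which makes the oxysterol 25-hydroxycholesterol, had the opposite order at 160 and 273 CPM against 90.8 and 60.7 CPM (log2 -1.53, SE 0.65, and -0.96 without the day 4 male library). Synthesis of cholesterol showed no one order: of 24 genes 6 were separated higher and 4 lower, Cyp51 among the first (15.7 and 15.2 CPM against 19.4 and 23.2 CPM) and Fdps among the second (20.8 and 26.6 CPM against 14.0 and 16.1 CPM). Of 36 lysosome genes 10 were separated higher and 2 lower, against 9 and 6 with median-ratio scaling, 7 and 6 with total counts and 10 and 6 with the median of genes at 10 CPM or more. Ctsa, a protective protein gene of lysosomal enzymes, stood at 3115 and 1470 CPM against 4747 and 4510 CPM, and Ctsb, cathepsin B, at 22241 and 15552 CPM against 28209 and 31897 CPM. Npc2 and Lipa, which free cholesterol from endocytosed lipoproteins, stood at 892 and 978 CPM against 1321 and 1757 CPM and at 556 and 360 CPM against 841 and 638 CPM. The log2 difference of Npc2 was 0.73, and 0.17 without the day 7 male library. Scarb2, a receptor gene of the lysosome membrane, was one of the 2 lower genes with 285.5 and 396 CPM against 251 and 209 CPM. Of 23 phagocytic and scavenger receptor genes 7 were separated higher, Fcgr2b (662 and 451 CPM against 702 and 964 CPM) among them, and 3 lower, with Fcgr4 at 143 and 203.5 CPM against 67.9 and 98.2 CPM and Gas6, a bridging ligand for dead cells, at 864 and 953 CPM against 584 and 278 CPM.

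Antigen presentation genes leaned to day 7 in class II and were mixed in class I. Of 12 MHC class II genes 7 were separated higher and 0 lower, with medians of 0.70 in females and 0.89 in males on the log2 scale. Cd74, the invariant chain gene, stood at 1076 and 420 CPM at day 4 and at 3181 and 2440 CPM at day 7 (log2 2.08, SE 0.80, unadjusted p = 0.0194). H2-Ab1, a class II beta chain gene, stood at 576 and 217 CPM against 1056 and 1237 CPM (log2 1.90, SE 0.81, and 0.599 without the day 7 male library), and H2-DMa, of the peptide-loading helper, at 182 and 130.4 CPM against 286.5 and 249 CPM. Of 19 MHC class I genes 9 were separated higher and 3 lower, and their summed level was 10784 and 17909 CPM against 19369 and 15242 CPM, higher at day 7 in the female and lower in the male library. H2-D1, a classical class I heavy chain gene, stood at 2994 and 3343 CPM against 5363 and 4604 CPM, and H2-T22 at 51.2 and 47.9 CPM against 70.6 and 166.8 CPM, while H2-T23 was lower at 258 and 269 CPM against 219 and 237 CPM. The class I genes are near-identical copies, so reads may be split among them. Of 16 complement genes 8 were separated higher and 0 lower, among them C3, given above, Cfb and Cfp. Cfb, the factor B gene of the alternative pathway, stood at 66.7 and 46.5 CPM against 123.6 and 147 CPM. Cfp, properdin, stood at 93.4 and 95.9 CPM against 114.6 and 393.8 CPM. The log2 difference of Cfp was 1.007, and 0.085 without the day 4 male library. Markers of border-associated macrophages lay on the same side: 6 of 13 tested were separated higher and 0 lower, their summed level was 2273 and 1395 CPM at day 4 and 3396 and 3852 CPM at day 7, and their part in the result was not tested.

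Type I interferon response genes are switched on by a factor complex that binds a repeated GAAA element in their promoters. Of 36 genes 15 were separated higher and 3 lower, with medians of 0.40 in females and 0.42 in males. Irf9, a DNA-binding subunit of that complex, stood at 109 and 42.2 CPM against 145.6 and 128 CPM. Among targets, Ddx60, a helicase gene, stood at 20.9 and 11.6 CPM against 49.0 and 48.2 CPM, Oasl2 at 160.3 and 116 CPM against 343 and 301.5 CPM, and Ifit2 at 165 and 63.0 CPM against 224 and 246 CPM. Ifit1 and Ifit3, of the same family of RNA-binding proteins, stood at 41.0 and 43.1 CPM against 58.2 and 97.0 CPM and at 147.5 and 150.3 CPM against 241.5 and 357 CPM. Without the day 7 male library their fitted log2 differences of 0.98 and 1.09 were -0.43 and -0.26. The day 7 female library nevertheless lay above both day 4 libraries for both genes. Members with the opposite order were Isg15, a ubiquitin-like modifier gene, at 14.6 and 35.2 CPM against 9.62 and 11.7 CPM, Ifi27l2a at 161 and 388 CPM against 116 and 146 CPM, and Cxcl10, a T cell attracting chemokine gene, at 93.7 and 148.5 CPM against 85.5 and 36.9 CPM. Without the day 4 male library the log2 differences of these 3 genes shrank, from -1.27 to 0.04 for Isg15, from -1.27 to -0.05 for Cxcl10 and from -1.03 to -0.24 for Ifi27l2a. Ifit2 went from 1.35 to 0.29 and Irf9 from 1.01 to 0.60 without the day 7 male library.

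Promoters of genes with both orders are printed to show that they carry the same element. Without the day 4 male library the fitted log2 differences of Isg15 and Cxcl10 were only 0.04 and -0.05. The day 4 female library still lay above both day 7 libraries for both genes. Windows of 300 bases (250 before to 50 after the start, GRCm38.p6, credited to RefSeq) were found for 25 of the 36 genes, 22 of them with 1 window. The motif, GAAA followed by any 2 bases and GAAA again, was searched on both strands. It occurred in 15 of the 25 genes (60%), counting a match in any window of a gene. Per single window it occurred in 3.44% of the 32851 windows searched, which do not cover every chromosome. It was found in 5 of 11 genes separated higher, 2 of 2 separated lower and 8 of 12 that overlapped. In the lines below capitals mark the motif or, on the other strand, its complement, TTTC, any 2 bases and TTTC. The Ifit1 window is chr19:34640639-34640938 and that of Ifit3 chr19:34583279-34583578, both on the plus strand. That of Isg15 is chr4:156200769-156201068 and that of Cxcl10 chr5:92348840-92349139, both on the minus strand.
Ifit1: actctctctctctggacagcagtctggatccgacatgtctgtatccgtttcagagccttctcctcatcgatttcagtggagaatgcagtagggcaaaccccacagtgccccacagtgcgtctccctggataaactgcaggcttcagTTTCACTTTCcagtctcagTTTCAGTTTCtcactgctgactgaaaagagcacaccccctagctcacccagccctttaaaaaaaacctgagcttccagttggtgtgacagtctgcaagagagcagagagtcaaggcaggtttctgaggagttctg
Ifit3: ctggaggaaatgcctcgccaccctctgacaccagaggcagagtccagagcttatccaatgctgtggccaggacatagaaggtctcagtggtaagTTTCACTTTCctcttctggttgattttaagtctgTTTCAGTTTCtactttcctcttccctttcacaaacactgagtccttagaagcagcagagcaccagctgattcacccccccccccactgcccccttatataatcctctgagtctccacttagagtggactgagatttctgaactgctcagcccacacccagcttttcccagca
Isg15: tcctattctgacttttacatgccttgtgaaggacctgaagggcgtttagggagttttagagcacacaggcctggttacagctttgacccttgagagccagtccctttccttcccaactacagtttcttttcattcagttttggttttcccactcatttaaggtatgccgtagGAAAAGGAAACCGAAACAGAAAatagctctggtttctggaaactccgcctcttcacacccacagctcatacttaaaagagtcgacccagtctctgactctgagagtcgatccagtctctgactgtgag
Cxcl10: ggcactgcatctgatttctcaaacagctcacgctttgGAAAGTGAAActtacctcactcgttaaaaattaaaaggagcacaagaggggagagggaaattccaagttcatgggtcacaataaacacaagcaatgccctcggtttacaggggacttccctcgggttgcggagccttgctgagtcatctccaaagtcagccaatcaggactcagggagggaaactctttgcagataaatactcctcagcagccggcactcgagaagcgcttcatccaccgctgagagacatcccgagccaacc
Ifit1 and Ifit3 have 2 matches each, the first at positions -104 and -156 from the start. Isg15 has 3 matches that overlap one another within 1 run, from -78 on, and Cxcl10 has 1 match at -213. Ifit2, separated higher, has 0 matches in either of its windows. The motif was thus present in windows of genes with either order, and a match describes letters, not binding.

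Of 31 cytokine and NF-kB target genes, 13 were separated higher and 2 lower, with a median log2 difference of 0.92. Il10, an anti-inflammatory cytokine gene, stood at 1.40 and 2.12 CPM at day 4 and at 9.81 and 11.9 CPM at day 7 (log2 2.64, SE 1.02, unadjusted p = 0.0199). Il1b and Il1a, both interleukin 1 genes, stood at 76.4 and 44.6 CPM against 188 and 130.9 CPM and at 154.5 and 93.3 CPM against 404 and 205 CPM. The antagonist gene Il1rn stood at 44.0 and 39.3 CPM against 61.7 and 181 CPM (log2 1.60, and 0.14 without the day 7 male library). Pro- and anti-inflammatory members thus stood on the same side. Ptgs2, the inducible cyclooxygenase gene, stood at 86.7 and 10.03 CPM against 140.8 and 126.6 CPM, and Nfkbia, the inhibitor of NF-kB that NF-kB itself induces, at 584 and 429.6 CPM against 842 and 982.5 CPM. Socs3, a feedback inhibitor gene of cytokine signalling, was lower at 775.5 and 325 CPM against 285 and 107 CPM (log2 -1.50, SE 0.70), as was Relb, a subunit gene of NF-kB, at 29.1 and 25.5 CPM against 23.6 and 3.64 CPM. The log2 difference of Relb was -1.14, and -0.12 without the day 7 male library. Tnf, tumour necrosis factor, overlapped at 199.8 and 129.9 CPM against 339 and 157 CPM. Of 21 chemokines and receptors 6 were separated higher and 2 lower. Cxcl13, a B cell attracting chemokine gene, stood at 2.15 and 2.38 CPM against 10.6 and 11.7 CPM, Ccr1 at 36.5 and 41.7 CPM against 110.4 and 107 CPM, and Cxcl16 at 287.5 and 284 CPM against 449 and 525 CPM. Ccr2, the receptor that draws monocytes, stood at 58.4 and 15.6 CPM against 85.7 and 77.0 CPM. Immediate early genes, which also respond to tissue dissociation, lay on the same side: of 22, 8 were separated higher and 2 lower (4 and 2 with total counts, 5 and 2 with the median of genes at 10 CPM or more), with Dusp1 at 597.5 and 698 CPM against 1472 and 2764 CPM and Fos at 1300 and 605 CPM against 2419 and 2003 CPM, and their part in the result was not tested.

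Part of the glycolysis and ribosomal protein genes stood lower. Of 24 genes for glycolysis and the hypoxia response 1 was separated higher and 11 lower, with a median log2 difference of -0.49. Gapdh, a core enzyme gene, stood at 2370 and 1973 CPM at day 4 and at 901 and 638 CPM at day 7 (log2 -1.50, SE 0.73, unadjusted p = 0.0592), and leaving out each library in turn gave -1.88 to -1.21. Ldha, lactate dehydrogenase, stood at 1215 and 880 CPM against 482 and 545 CPM, Slc16a3, a lactate exporter gene, at 266 and 87.6 CPM against 73.5 and 36.0 CPM, and Pkm, pyruvate kinase, at 2932 and 1671 CPM against 1270 and 1456 CPM. Without the day 4 female library the log2 difference went from -1.69 to -0.22 for Slc16a3 and from -0.76 to -0.20 for Pkm. Hif1a, the oxygen-regulated factor gene that drives many of these, stood at 523 and 651 CPM against 408 and 292 CPM. The member separated higher was Pfkp, a phosphofructokinase gene, at 28.5 and 23.7 CPM against 36.2 and 48.2 CPM. Of 79 cytosolic ribosomal protein genes 27 were separated lower, 1 higher and 51 overlapped (49 lower and 0 higher under total-count scaling), with medians of -0.50 in females and -0.89 in males. Rps2 stood at 420 and 617 CPM against 235.6 and 240.0 CPM, Rps27a at 130.7 and 444 CPM against 78.5 and 104.6 CPM, and Rplp0 at 682 and 694.5 CPM against 515 and 555 CPM. The day 4 male library was the highest of the 4 for each of these 3 genes. Of 42 respiratory chain genes 5 were separated lower (11.9%) and 1 higher (2.38%). These shares were 20.4% and 12.9% over all genes, and 9.74% and 20.5% over genes at 10 CPM or more. Atp5b, an ATP synthase gene, stood at 841.5 and 750 CPM against 548 and 323 CPM. Of 24 unfolded protein and stress response genes 3 were separated higher (12.5%) and 5 lower (20.8%), with Canx, calnexin, at 916 and 433 CPM against 1081 and 2120 CPM, Calr, calreticulin, at 949 and 805 CPM against 663 and 418 CPM, and Psat1, a serine synthesis gene, at 210.4 and 121.6 CPM against 67.5 and 82.5 CPM.

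Cell division showed opposite orders in the sexes. The median log2 ratio of 40 DNA replication genes was -0.61 between the female and 0.74 between the male libraries, and that of 36 mitosis genes was -0.66 and 0.98. In both lists 1 gene was separated higher (2.5% and 2.78%) and 4 lower (10% and 11.1%), each under the share over all genes (12.9% and 20.4%). Over genes at 10 CPM or more 9.74% were separated lower. Top2a, the topoisomerase gene of dividing cells, stood at 99.9 and 30.9 CPM at day 4 and at 66.0 and 84.4 CPM at day 7, and Mki67, a proliferation antigen gene, at 54.3 and 24.7 CPM against 55.5 and 72.3 CPM. Pcna, the replication clamp gene, stood at 94.3 and 133 CPM against 67.2 and 131 CPM. Genes that were lower in both sexes were Ccna2, a cyclin gene of S phase and mitosis, at 66.1 and 63.5 CPM against 26.7 and 20.9 CPM (log2 -1.44, SE 0.81), Ube2c, a ubiquitin-conjugating enzyme gene of mitotic exit, at 38.8 and 39.9 CPM against 20.2 and 19.4 CPM, and Cks2, a kinase subunit gene, at 16.4 and 41.9 CPM against 11.9 and 12.9 CPM. The difference between the sexes was not tested, since each sex has 1 library a day.

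**Figure D3:**
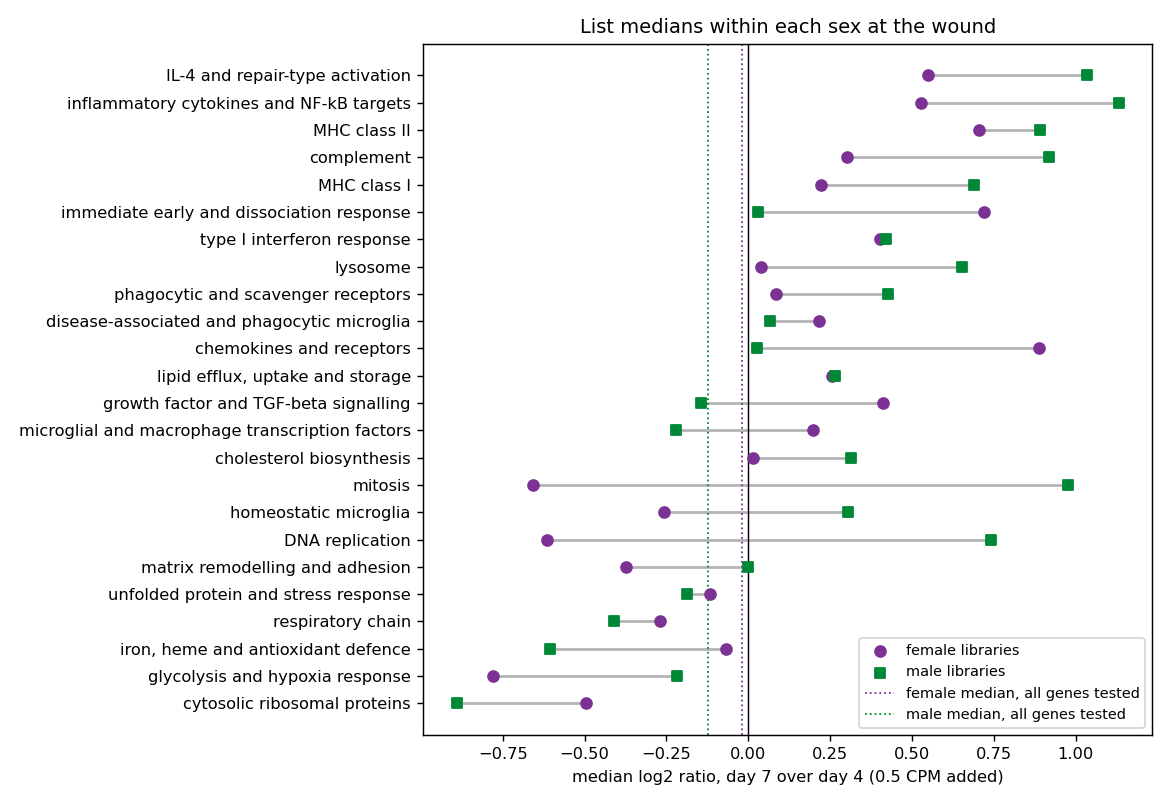
Median log2 ratio of day 7 over day 4 for each list between the female libraries (purple circles) and between the male libraries (green squares), with 0.5 CPM added. Dotted lines are the medians over all genes tested, -0.02 and -0.12. DNA replication and mitosis lie on opposite sides of 0 in the 2 sexes, while ribosomal proteins and glycolysis lie below 0 and MHC class II and cytokines above 0 in both.

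Surveillance genes of resting microglia had no common order. Of 32 homeostatic genes 6 were separated higher and 3 lower, with medians of -0.26 in females and 0.30 in males. P2ry12, the ADP receptor gene of ramified microglia, stood at 792 and 255 CPM at day 4 and at 958 and 478 CPM at day 7, and Tmem119, a membrane gene used as a marker, at 1494 and 466 CPM against 1726 and 832 CPM, so the sexes differed more than the days. Cx3cr1, the gene that carries the recombinase, stood at 156 and 4.32 CPM against 17.7 and 2.47 CPM, and its log2 difference of -2.59 was 0.20 without the day 4 female library. Entpd1, an ectonucleotidase gene, stood at 231 and 71.7 CPM against 434.5 and 257.7 CPM, and Ctss, cathepsin S, at 7001 and 7572 CPM against 11384 and 14210 CPM. Bin1, a membrane-bending protein gene, stood at 557 and 285 CPM against 250.6 and 119 CPM, and Ecscr at 60.2 and 87.8 CPM against 31.3 and 25.9 CPM. Of 29 transcription factor genes of microglia and macrophages 7 were separated higher and 2 lower. Bhlhe40 and Bhlhe41, paired repressor genes, stood at 73.0 and 48.7 CPM against 169 and 142 CPM and at 171 and 157 CPM against 264 and 384 CPM. The fitted log2 difference of Bhlhe41 was -0.16 without the day 7 male library, although the day 7 female library lay above both day 4 libraries. Maf stood at 66.2 and 30.2 CPM against 97.6 and 70.2 CPM.

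The lists for wound repair were mixed. Of 32 matrix remodelling and adhesion genes 6 were separated higher (18.8%) and 8 lower (25%). Ecm1, an extracellular matrix protein gene, stood at 210.5 and 137 CPM at day 4 and at 476 and 754 CPM at day 7 (log2 1.83, SE 0.80), and Lox, a collagen cross-linking enzyme gene, at 1.70 and 1.29 CPM against 6.56 and 5.88 CPM. Itgb3, an integrin gene, had the opposite order at 42.0 and 14.2 CPM against 10.8 and 4.87 CPM, as did Adam8, a membrane metalloprotease gene, at 217.5 and 247 CPM against 115 and 179 CPM. Of 25 iron, heme and antioxidant genes 3 were separated higher (12%) and 5 lower (20%), near the shares over all genes (12.9% and 20.4%). Besides Hmox1 the lower ones included Slc48a1, a heme transporter gene of the lysosome, at 187 and 340 CPM against 142.5 and 79.8 CPM, and Blvrb, a biliverdin reductase gene, at 64.8 and 103.9 CPM against 43.3 and 57.1 CPM. The log2 difference of Slc48a1 was -1.12, and -0.38 without the day 7 male library. Cd163, the receptor gene for hemoglobin bound to haptoglobin, had the opposite order at 6.55 and 1.5 CPM against 6.75 and 20.1 CPM, as did Blvra, the other biliverdin reductase gene, at 64.8 and 73.3 CPM against 87.6 and 189 CPM. Of 16 genes induced by IL-4 or linked to repair 7 were separated higher and 1 lower (3 and 2 under total-count scaling), with Klf4, a transcription factor gene of this state, at 4.11 and 4.03 CPM against 16.2 and 23.6 CPM (log2 2.31, SE 0.83). Of 29 growth factor and TGF-beta genes 7 were separated higher and 2 lower. Pdgfc, a platelet-derived growth factor gene, stood at 1.57 and 1.94 CPM against 8.48 and 7.18 CPM, and Bmp2k, a kinase gene induced by bone morphogenetic protein 2, at 205 and 150.1 CPM against 353.4 and 469 CPM.

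Days 1 and 14 at the wound place the interval in its course. Hmox1 stood at 679.5 and 492 CPM at day 1 and at 64.8 and 89.6 CPM at day 14, so day 4 held its highest level of the 4 days in both sexes. Cd5l likewise had its highest level at day 4, from 5.85 and 1.86 CPM at day 1. Gpnmb stood at 46.4 and 45.0 CPM at day 1 and at 509.6 and 2885 CPM at day 14, Clec12a at 16.8 and 16.1 CPM and at 33.4 and 53.8 CPM, and Mmp8 at 3.90 and 2.03 CPM and at 5.72 and 15.4 CPM, so these 3 were highest at day 7 in both sexes. Atp6v0d2 stood at 2.37 and 0.769 CPM at day 1 and at 95.2 and 112 CPM at day 14, above day 7 in both. Cd74 stood at 775 and 189 CPM at day 1 and at 3312 and 2311 CPM at day 14, close to its day 7 level. Igha was again low in the female day 14 library and high in the male one, at 0.303 and 138 CPM. These levels are descriptions, and differences with days 1 and 14 were not tested here.

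**Figure D4:**
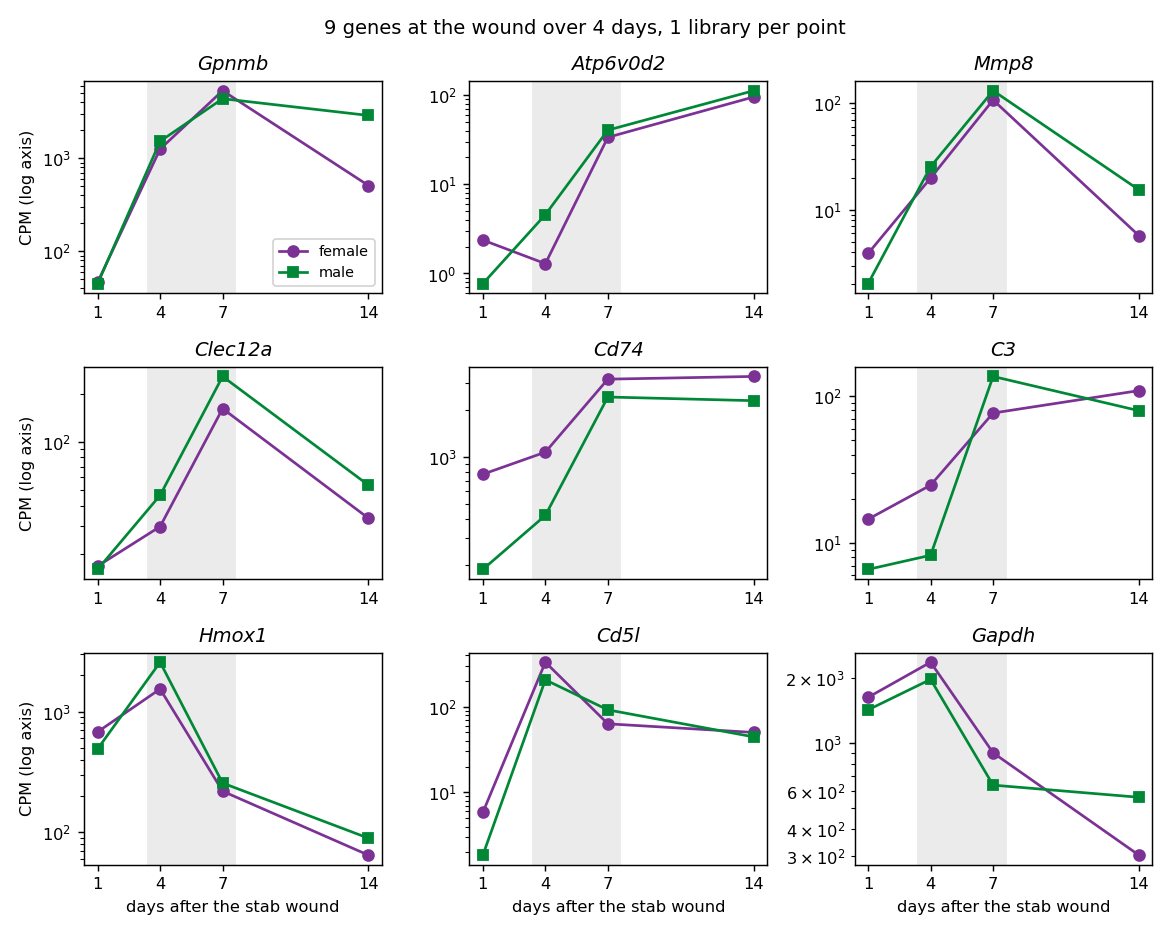
CPM on log axes of 9 genes in the wound libraries of days 1, 4, 7 and 14, 1 point per library, purple circles for females and green squares for males, with days 4 and 7 shaded. Gpnmb, Mmp8 and Clec12a peak at day 7 in both sexes, Hmox1 and Cd5l at day 4, and Atp6v0d2 is highest at day 14.

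The gate sorts by EYFP, and transcripts of other cell types were counted in each library. Microglia markers, 15 genes, summed to 37227 and 17701 CPM at day 4 and to 32088 and 22993 CPM at day 7, far above each other list. Monocyte markers had 6 of 15 tested members separated higher and 2 lower, with sums of 1541 and 504 CPM against 619.6 and 1094 CPM. Clec4e, a lectin receptor gene for mycobacterial lipid and dead cells, stood at 9.81 and 13.6 CPM against 30.6 and 148.8 CPM, and Hp, haptoglobin, at 6.94 and 8.65 CPM against 10.6 and 247 CPM. Both are among the higher members, and the 2 lower ones are not reported here. The log2 difference of Hp was 3.12, and 0.75 without the day 7 male library. Border-associated macrophage markers were led by Ms4a7, at 131.8 and 366 CPM against 821.5 and 1896 CPM (log2 2.45, SE 0.87, and 1.28 without the day 7 male library), and F13a1, a coagulation factor gene, at 277 and 67.7 CPM against 646.5 and 662 CPM (log2 2.13, SE 0.80, and 1.27 without the day 4 male library). Of 13 T cell markers 10 were separated higher and 0 lower, at low levels: the sums were 28.01 and 29.4 CPM against 66.1 and 63.1 CPM, with Cd4, which macrophages can also express, at 4.61 and 0.736 CPM against 19.4 and 10.4 CPM and Trac, the T cell receptor alpha constant region, at 0.299 and 0.706 CPM against 2.48 and 2.88 CPM. Cd3e, a defining chain of the T cell receptor complex, stood at 0.765 and 0.176 CPM against 1.89 and 0.822 CPM. Of 8 B and plasma cell markers tested 5 were separated higher and 0 lower. Other lists were lower: 0 of 5 erythroid markers tested were separated higher and 5 lower (sums 22.99 and 54.8 CPM against 3.20 and 0.38 CPM, with Slc4a1 and Hemgn at 0 in the 4 libraries), 0 and 6 of 11 mural cell markers, and 0 and 4 of 9 oligodendrocyte precursor markers. Of 13 oligodendrocyte markers 0 were separated higher and 3 lower (23.1%), near the share of 20.4% over all genes. Their sums overlapped, at 530.5 and 2035 CPM against 585.4 and 956.5 CPM. Acta2, the smooth muscle actin gene, stood at 5.75 and 7.68 CPM against 1.44 and 1.36 CPM. In bulk samples fewer cells of a type and less RNA per cell cannot be told apart, and the part of these cells in the results above was not tested.

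**Figure D5:**
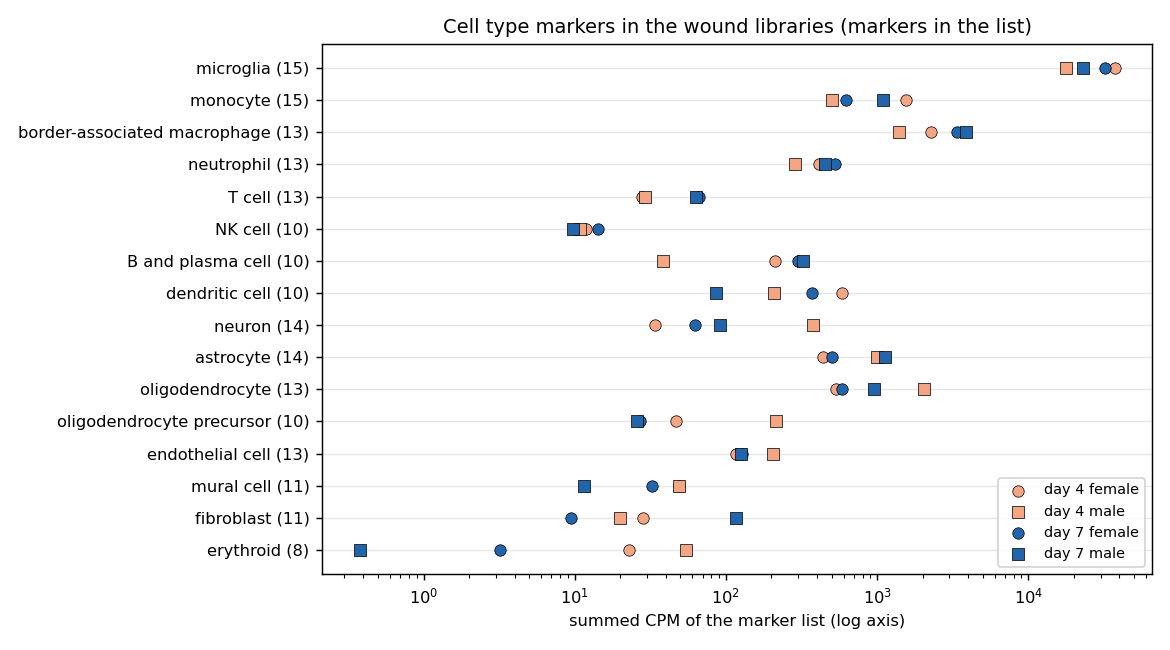
Summed CPM of each marker list (number of markers in parentheses) on a log axis in the 4 wound libraries, orange for day 4, blue for day 7, circles for female and squares for male. T cell, border-associated macrophage, neutrophil, and B and plasma cell sums are higher in both day 7 libraries. Erythroid, mural cell and oligodendrocyte precursor sums are lower in both. Neuron, oligodendrocyte and precursor sums are highest in the day 4 male library.

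The same interval on the non-injured side was fitted for comparison, from 8 separate libraries. edgeR called 0 of 24622 genes higher (0%) and 0 lower (0%), with 267 at an unadjusted p under 0.05, 132 higher (0.536%) and 135 lower (0.548%), and DESeq2 called 13 (423 at an unadjusted p under 0.05). Whether the day 7 against day 4 difference itself differed between the sides was tested in all 16 libraries, and 0 of 28597 genes were called higher (0%) and 0 lower (0%) by edgeR, with 82 at an unadjusted p under 0.05, 8 higher (0.028%) and 74 lower (0.259%), and 79 called by DESeq2 (285 at an unadjusted p under 0.05). List medians of the log2 difference follow, first at the wound, then on the non-injured side. They were 0.68 and 1.15 for MHC class II, 0.50 and 0.95 for complement and 0.47 and 0.73 for MHC class I. They were 0.40 and 1.19 for interferon genes, 0.92 and 0.91 for cytokines and -0.75 and -1.175 for ribosomal proteins. IL-4 and repair genes (1.13 and -0.10) and glycolysis (-0.49 and -0.20) were shifted less there. For the other lists named the 2 medians had the same sign. The non-injured medians include the day 4 male library, in which microglia markers summed to 14044 CPM, against 76244 CPM in the day 4 female one. The part of that library in these medians was not tested. Several genes that were higher at the wound were also high in the day 7 male non-injured library. Gpnmb stood there at 398.7 CPM against 8.11 CPM in the day 7 female library, Cd74 at 1519 against 371 CPM, C3 at 94.5 against 8.59 CPM and Ms4a7 at 423 against 17.4 CPM. The fitted difference between the sides was -2.44 for Gpnmb (SE 1.85), -2.45 for Cd74 (SE 1.29) and -2.48 for Hmox1 (SE 0.90), each with an adjusted p of 1 by edgeR. CPM values of the 2 sides were scaled separately, so levels are compared within a side only. The day 4 male non-injured library held 25.7% mitochondrial transcripts, 11295 CPM of neuron markers and 855 CPM of the 10 cardiac muscle genes, and it enters both of these fits.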

How the data were processed

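RNA of sorted microglia was counted per gene with Salmon 1.0.0, and DESeq2 1.26.0 is also named, per the submitters' processing notes. The deposited expected counts are estimated reads for 55385 gene IDs, not normalized, and the deposited TPM values are the authors' as well. SMART-Seq v4 and Nextera XT do not keep the strand, so overlapping genes on opposite strands cannot be told apart. The genome build is not given in the sources used here. Symbols came from the authors' deposited comparison table, and coordinates from GENCODE M21 (GRCm38), in which 54487 IDs were found. The other values of the deposited tables (normalized signal, log2 fold changes with a score for their error, p-values) compare sides and were not used.

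The 2 columns of each group were summed and rounded, after a chi-square check over genes with at least 20 counts. Counts were fitted in R 4.3.3 with edgeR 4.0.16 (quasi-likelihood, TMM, filterByExpr at a minimum count of 10) to 8 wound libraries with day and sex, with 3 residual and 12.1 prior degrees of freedom. The non-injured side was fitted alike, and the difference of sides in 16 libraries with 7 residual degrees of freedom. The threshold was 0.05 on p-values adjusted by Benjamini-Hochberg across every gene in the fit. The standard error is the log2 difference over the square root of F. The fits were tested on simulated data with a smaller spread between libraries than these data have. Summing the columns gives 1 library per day and sex, so the spread is that left by day and sex over the 4 days. TPM were tested with limma 3.58.1 on log2(TPM + 1), and DESeq2 1.42.0 was an alternative. Intervals and p-values do not cover the animals behind a library, which the labels do not name.

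The genes named were the 12 higher and 12 lower ones of smallest p that averaged 10 CPM or more, were separated and were not predicted gene models, and members of 24 gene lists and 18 marker lists. By the rule the first 5 members of each list were to be named. Not all are printed, and the list members printed were chosen after their values were seen, mostly separated ones. The members and lists were chosen with earlier results of these data known. Lrrc33, a list member, was not matched. The cardiac muscle genes and immunoglobulin sums were chosen after the values were seen. Some list members are not reported here.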

Additional observations from a re-analysis of the deposited data

Results flagged for a closer look

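For 6 gene lists the median log2 ratio of day 7 over day 4 lay on opposite sides of 0 in the female and the male libraries. With 1 library per sex and day this difference was not tested. The medians were -0.26 in females and 0.30 in males for homeostatic microglia, -0.61 and 0.74 for DNA replication, and -0.66 and 0.98 for mitosis. They were -0.37 and 0.00 (just above 0) for matrix remodelling and adhesion, 0.41 and -0.15 for growth factor and TGF-beta signalling, and 0.20 and -0.22 for microglial and macrophage transcription factors. Over all genes tested the medians were -0.02 and -0.12.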

How the results depend on the processing

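At the wound the count of genes called was 0 under median-ratio scaling, no sex term, all 16 libraries, no day 1 libraries, limma on log2 TPM with 1 or 0.1 added and without a filter, and a test against a 1.5-fold change. It was 23 without a filter on low counts, 19 with DESeq2, 3 with the 4 libraries of days 4 and 7 alone and 6 without the day 14 libraries, and 0 to 27 when each library was left out, with 27 without the day 7 female library. With the 16 deposited columns as separate samples it was 1148, and 705 with the replicate block (replicate number 1 or 2). In those fits counting noise stands for the spread, since the numbers mark columns that differ by little more than that noise, and the block is given here only. On the non-injured side the count was 3 without a filter, 13 with DESeq2 and 0 to 29 when each library was left out (29 without the day 7 female library). For the difference of sides it was 2 without a filter and 79 with DESeq2, and 0 when each library was left out.

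Of the 137 genes followed, 124 kept the sign of their log2 difference at the wound under each alternative run. Leaving out each library in turn gave -0.268 to 1.432 for Tmem119, -3.728 to 0.196 for Cx3cr1, -1.03 to 2.019 for Spp1, -0.052 to 3.699 for Abcg1, -0.429 to 1.774 for Ifit1, -0.259 to 1.946 for Ifit3, -2.114 to 0.044 for Isg15, -0.181 to 2.213 for H2-T22, -0.036 to 1.538 for Mki67, -0.722 to 1.501 for Top2a, -1.112 to 0.378 for Pcna, -0.156 to 1.752 for Bhlhe41 and -0.269 to 3.694 for Cd3e. In all 16 libraries Top2a was at -0.095. Without the day 7 male library several other higher genes kept their sign but shrank. Canx went from 1.543 to 0.016, Cyp51 from 0.483 to 0.006 and Fcgr2b from 0.635 to 0.075. Bmp2k went from 1.346 to 0.178, Nfkbia from 0.925 to 0.233 and Dusp1 from 1.78 to 0.397. Clec12a (2.451 to 2.322) and Il10 (2.638 to 2.566) changed little. The cause was not tested. Scalings added after seeing the data left 227 counts of separated list members within 1.5 times and moved 37.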

Other observations

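Cardiac muscle genes were present in both day 4 male libraries. At the wound 10 of them summed to 408 CPM in that library and to 2.56 to 13.7 CPM in the other 7. On the non-injured side, which was scaled separately, they summed to 855 CPM in the day 4 male library and to 9.85 to 15.9 CPM in the other 7. In the day 4 male wound library Actc1, cardiac actin, stood at 111 CPM, Mb, myoglobin, at 51.7 CPM and Myh6, a cardiac myosin heavy chain gene, at 39.7 CPM, and the other 7 wound libraries held at most 0.522, 0.422 and 0.323 CPM. These genes were chosen after their values were seen.

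Ighg2c, an IgG heavy chain gene, stood at 14.3 CPM in the day 4 female wound library and at 18.8 and 26.9 CPM at day 7, and at 0.118 CPM in the day 4 male one.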
